A study of Danio rerio with 12 samples.

Results

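The BMP, TGF-beta and Id genes are the 60 genes, of 14581 in the deposited table, whose symbol begins with bmp, smad, tgfb, gdf, acvr, chrd, inhb or nog and a digit, or is id1, id2, id3 or id4. They comprise 18 BMP and GDF ligands, 3 TGF-beta ligands, 3 activin and inhibin subunits, 6 extracellular antagonists and 14 receptors. Also among them are 6 receptor Smads, 2 inhibitory Smads and 3 Id genes (id1, id3 and id4). The other 5 were matched by name and were placed in none of these roles. RNA had been measured in EGFP-positive cells sorted from zebrafish neuroblastomas, with 8 libraries from fish carrying a MYC transgene and 4 from fish carrying a MYCN transgene. The age of the fish, the promoter of the transgenes and any pooling of tumours are not given in the labels. The series title frames the comparison around MYC-driven tumours and resistance to retinoic acid.

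In this pathway a secreted dimer of the TGF-beta family brings type I and type II receptor kinases together. BMP-type receptors phosphorylate Smad1, Smad5 and Smad9, and activin and TGF-beta receptors phosphorylate Smad2 and Smad3. The Smads enter the nucleus with Smad4. The Id genes are classical direct targets of BMP signalling. Their proteins lack a basic region and hold E proteins away from DNA, which blocks proneural bHLH factors. In the embryo, BMPs from the dorsal aorta induce the sympathetic noradrenergic programme from which neuroblastoma arises.

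All values are FPKM, which are per transcript length, and "fell" and "rose" mean lower and higher in MYC at an adjusted p under 0.05 in limma over all 9606 genes tested. Genes at 1 FPKM were counted at 8688 to 9844 per MYC library and 8858 to 9513 per MYCN library, and depth in reads is unknown. The summed FPKM of 7 noradrenergic markers was 3366 to 4940 in MYC and 5439 to 7265 in MYCN, without overlap. It was thus lower in MYC together with the genes that fell, and its part in them was not tested. Of the 7, phox2bb (log2 fold change -2.21, adjusted p = 0.0140) and hand2 (-1.04, adjusted p = 0.0184) fell and the other 5 did not pass. In limma with a replicate block over MYC 1 to 4 and MYCN 1 to 4, phox2a was also lower (-0.79, adjusted p = 0.0279). There ddc was higher (0.97, adjusted p = 0.0175). No marker of the 7 separated the groups by itself. The largest parts of the sum were dbh (mean 1803 FPKM in MYC and 2499 FPKM in MYCN) and hand2 (1242 and 2569 FPKM). Only ddc had a higher mean in MYC (121 ± 42.2 FPKM, against 69.8 ± 30.1 FPKM in MYCN). The phox2bb call ended without MYCN 1 or MYCN 2 (0.0526 and 0.0601). All 5 endothelial markers stayed below 1 FPKM in every library. The sum of 6 Schwann and glia markers was also lower in MYC without overlap (0.106 to 1.63 FPKM, against 2.10 to 4.79 FPKM in MYCN). In MYCN most of that sum was fabp7a (mean 2.80 FPKM, against 0.365 FPKM in MYC), which fell (log2 fold change -1.48, adjusted p = 0.00175). It entered the tested set through MYCN, its high group. The other 5 stayed below 1 FPKM in every library, were not tested, and did not separate the groups. The sum of 5 pan-leukocyte markers was higher without overlap (53.1 to 203 FPKM, against 18.5 to 51.9 FPKM in MYCN), and 4 of them rose (rac2, plek, wasb and cxcr4b). When 1 library was left out, the wasb call (adjusted p = 0.0495) held only without MYCN 3, MYC 6 or MYC 8. The cxcr4b call ended without MYCN 1, MYCN 2 or MYCN 4, and that of plek without MYCN 4. The sums of the fibroblast, interrenal and erythroid markers overlapped between the groups. For the interrenal markers the overlap came from MYC 5 to 8 (5.80 to 36.5 FPKM). The sum in MYC 1 to 4 (24.1 to 42.3 FPKM) lay above that in every MYCN library (9.64 to 16.9 FPKM). The part of these cells in other genes was not tested. The summed FPKM of 9 macrophage markers was 462 to 1357 in MYC 1 to 4, 210 to 328 in MYC 5 to 8 and 30.9 to 633 in MYCN. In MYCN 3 the gene cd74a, which did not pass (adjusted p = 0.140, but 0.0132 and higher in MYC with the replicate block), made up 549 of the 633. Without cd74a the sum was 121 to 489 in MYC and 15.2 to 83.8 in MYCN, and for 6 of the 9 markers every MYC library lay above every MYCN library. Of the 8 tested, 7 rose, of which the calls of mpeg1 and lcp1 ended without MYCN 1, MYCN 2 or MYCN 4. In such bulk samples, fewer cells of a type and less RNA per cell cannot be told apart.

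Of the 60 genes, 32 passed the filter on low values and 28 did not. A gene that passed only through the group where it is high had to differ, so counts over the 32 are descriptions. By limma 7 fell, 0 rose and 25 did not pass. The 7 that fell are 21.9% of those tested, where 7.63% of all tested genes fell and 5.77% rose. At an unadjusted p under 0.05, 6 were higher (18.8%, against 12.9% of all tested genes) and 10 were lower (31.2%, against 15.7%). The median log2 fold change was -0.44 over the 32, against -0.05 over all tested genes. Of the genes that fell, all but the activin receptor gene acvr1b belong to the BMP branch, as receptors, as Smads or as a binder of its ligands. That branch also supplies more of the tested genes than the activin and TGF-beta branch, and whether its genes fell more often was not tested. The calls of bmpr1ab, bmpr2a and smad5 ended when some single libraries were left out.

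**Figure D1:**
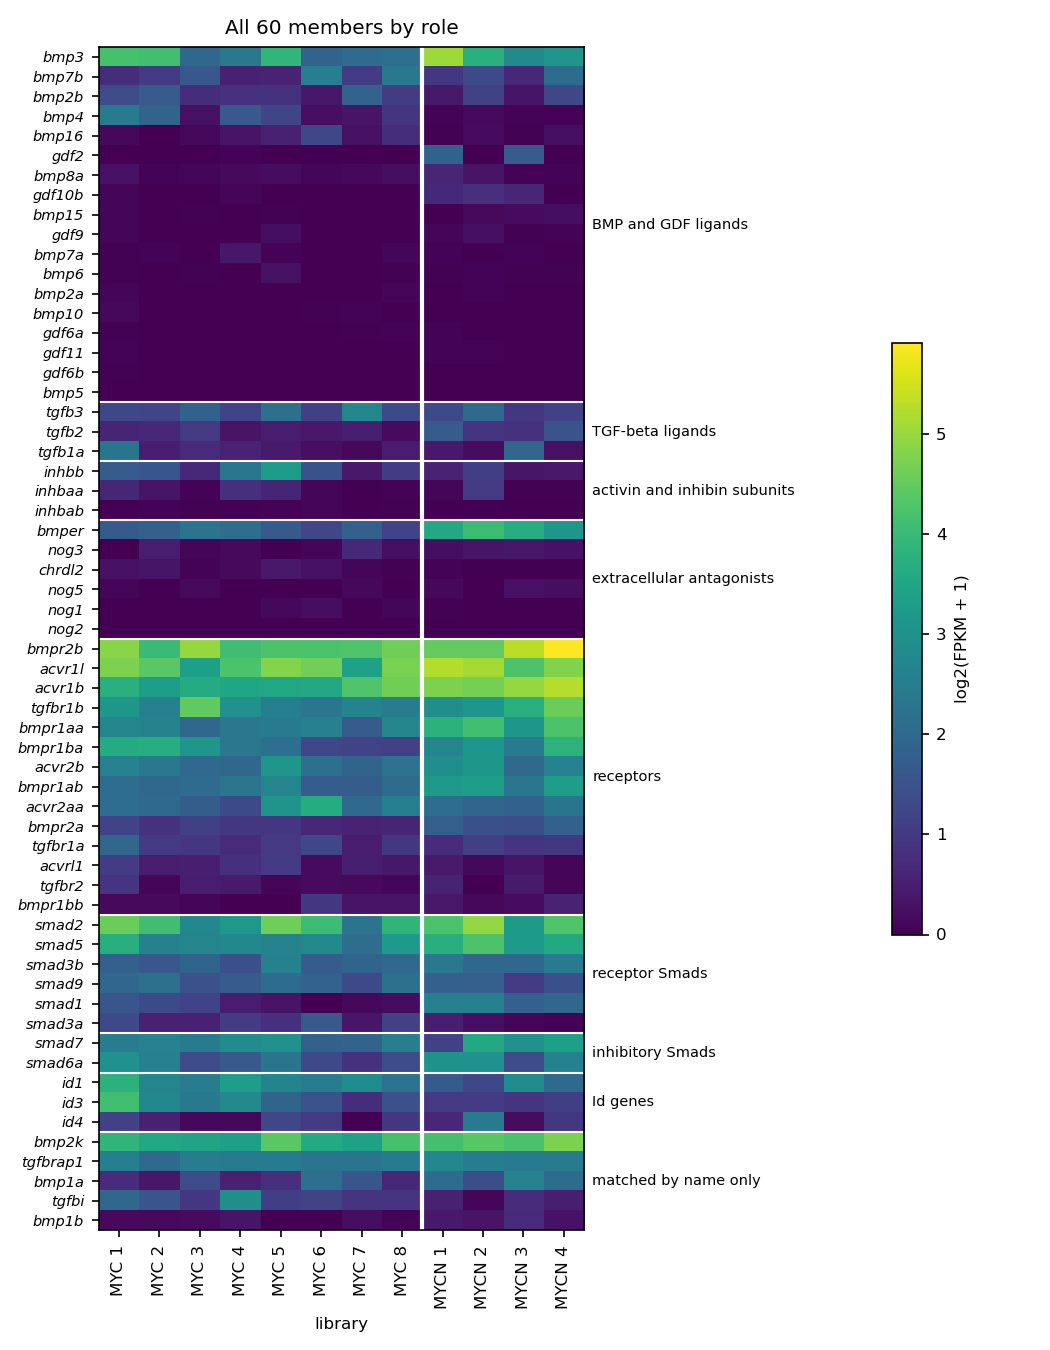
Heat map of log2(FPKM + 1) for all 60 genes, grouped by role and sorted by mean within each role, with MYC 1 to 8 on the left and MYCN 1 to 4 on the right of the white line. Most ligand and antagonist rows are dark in all 12 libraries, and receptors and Smads hold most of the brighter cells.

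Most BMP and GDF ligands had little RNA in either tumour type. Of the 18, 12 never reached 1 FPKM in any library, and bmp5 was listed at 0 in all 12. Their summed level was 13.4 ± 7.25 FPKM in MYC (SD, n = 8) and 19.1 ± 12.4 FPKM in MYCN (n = 4). None of the 4 tested ligands passed.

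The most abundant ligand gene was bmp3, whose product antagonises other BMPs in mammals. Its RNA ranged from 2.68 to 17.2 FPKM in MYC with a median of 3.80, against 31.9, 12.4, 5.82 and 7.43 FPKM in MYCN 1 to 4. The groups overlapped, and the log2 fold change was -0.82 ± 0.55 (SE, adjusted p = 0.354). The second in level was bmp7b, a paralogue of the BMP7 gene. It ranged from 0.454 to 4.84 FPKM in MYC (median 1.03), against 0.930, 1.49, 0.578 and 3.23 FPKM in MYCN (adjusted p = 0.948). High and low values occurred in both groups.

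The gene bmp4, a ligand that induces sympathetic neurons, had its values apart in the groups. It stood at 4.49, 2.73, 0.195 and 2.15 FPKM in MYC 1 to 4 and at 1.34, 0.191, 0.254 and 0.856 FPKM in MYC 5 to 8, against 0.0328, 0.104, 0.0469 and 0.0455 FPKM in MYCN 1 to 4. All 8 MYC libraries lay above all 4 MYCN libraries, with a mean of 1.52 ± 1.53 FPKM in MYC and 0.0573 ± 0.0318 FPKM in MYCN. Among all tested genes, 3.73% separated in this way. The gene reached 1 FPKM in MYC libraries only and so entered the tested set through its high group, which makes its separation a description. Its log2 fold change of 1.04 ± 0.39 did not pass (adjusted p = 0.0929), while it passed with the replicate block over MYC 1 to 4 and MYCN 1 to 4 (1.49 ± 0.35, adjusted p = 0.0252) and with a pseudocount of 0.1 (2.72, adjusted p = 0.0309). In 3 MYC libraries bmp4 stayed under 0.3 FPKM. The macrophage sum without cd74a was also higher in every MYC than in every MYCN library, and its part in the level of bmp4 was not tested.

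Other BMP ligands showed no call. The gene bmp2b, one of the zebrafish BMP2 genes, ranged from 0.307 to 2.62 FPKM in MYC and from 0.264 to 1.39 FPKM in MYCN (adjusted p = 0.525). Below the filter, gdf2, the gene of circulating BMP9, was at 2.59 and 2.23 FPKM in MYCN 1 and MYCN 3 and at most 0.0450 FPKM in the other 10 libraries. The gene gdf10b ranged from 0 to 0.0628 FPKM in MYC, against 0.586, 0.748, 0.542 and 0 FPKM in MYCN 1 to 4. Neither was tested, and both groups held values of 0.

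Among the TGF-beta ligands, tgfb3 was the most abundant, at 2.31 ± 1.54 FPKM in MYC and 1.702 ± 0.992 FPKM in MYCN (log2 fold change 0.25 ± 0.32, adjusted p = 0.669). Its values ranged from 1.19 to 5.54 FPKM in MYC with a median of 1.46, against 1.50, 3.15, 0.927 and 1.23 FPKM in MYCN. The gene tgfb2 did not reach the filter. It ranged from 0.135 to 1.02 FPKM in MYC, against 2.23, 0.843, 0.792 and 1.86 FPKM in MYCN, and 7 of the 8 MYC libraries lay below all MYCN libraries. The gene tgfb1a, whose mammalian counterpart is made by many leukocytes, stood at 3.93 FPKM in MYC 1 and 0.0866 to 0.660 FPKM in the other 7 MYC libraries, against 2.89 FPKM in MYCN 3 and 0.138 to 0.318 FPKM in the other 3 MYCN libraries. MYC 1 and MYCN 3 also had the highest macrophage marker sums of their groups (1357 and 633 FPKM), while without cd74a the highest MYC sum was in MYC 4 (489 FPKM, against 473 FPKM in MYC 1), and the part of those cells in the level was not tested.

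Of the activin and inhibin subunits only inhbb, the beta B subunit, was tested. It ranged from 0.328 to 8.58 FPKM in MYC with a median of 1.91, against 0.507, 1.13, 0.281 and 0.316 FPKM in MYCN. The high values were in MYC 4 and MYC 5, and 5 of 8 MYC libraries exceeded all MYCN libraries (log2 fold change 0.95 ± 0.43, adjusted p = 0.164). In MYCN only MYCN 2 reached 1 FPKM, so inhbb entered the tested set through MYC, its high group. The beta A subunit genes did not reach the filter. The gene inhbaa ranged from 0 to 0.739 FPKM in MYC, against 0.0729, 1.004, 0.0206 and 0.0194 FPKM in MYCN 1 to 4, and inhbab stayed at or below 0.0578 FPKM in MYC and 0.00736 FPKM in MYCN.

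The gene bmper, encoding a secreted protein that binds BMPs and can curb or promote their signalling, had the most negative log2 fold change of the 7 that fell. It ranged from 1.27 to 3.77 FPKM in MYC with a median of 2.36, against 10.8, 15.6, 11.7 and 7.78 FPKM in MYCN 1 to 4. The groups were apart, with a mean of 2.40 ± 0.859 FPKM in MYC and 11.5 ± 3.21 FPKM in MYCN, or 4.78-fold lower in MYC. The log2 fold change was -1.88 ± 0.24 (adjusted p = 0.000269). It was -1.64 for MYC 1 to 4 alone and -2.12 for MYC 5 to 8 alone, each set against the same MYCN libraries. Noggin and chordin-like genes were almost silent: chrdl2, nog1, nog2, nog3 and nog5 reached at most 0.595 FPKM in any MYC and 0.294 FPKM in any MYCN library.

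The receptors as a group had the highest summed level of the roles, 86.4 ± 14.6 FPKM in MYC and 147 ± 34.7 FPKM in MYCN. Of the 11 tested, 4 fell and the other 7 did not pass, and their median log2 fold change was -0.69. The range of the sum was 64.8 to 109 FPKM in MYC and 125 to 199 FPKM in MYCN.

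**Figure D2:**
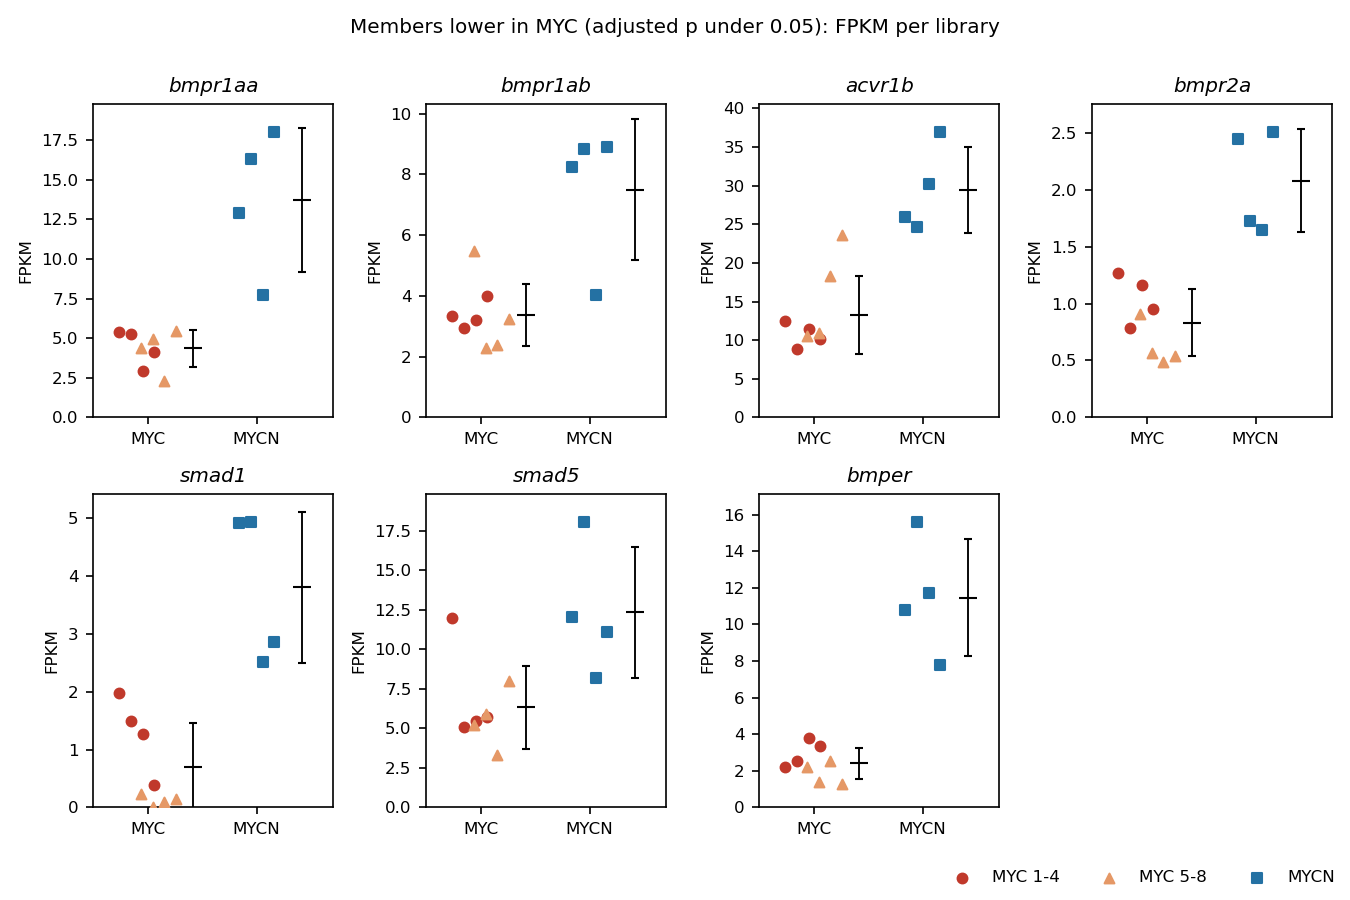
FPKM per library of the 7 genes that fell, with MYC on the left (circles for MYC 1 to 4, triangles for MYC 5 to 8) and MYCN on the right (squares); the black bars are the mean and SD of each group (ending at the axis where the SD reaches below 0), and each panel has its own axis from 0. For bmpr1aa, acvr1b, bmpr2a, smad1 and bmper every MYC library lies below every MYCN library, while 1 MYC library reaches into the MYCN range for bmpr1ab and for smad5.

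Both paralogues of the BMP type I receptor gene BMPR1A fell. The first, bmpr1aa, ranged from 2.28 to 5.47 FPKM in MYC with a median of 4.67, against 12.9, 16.3, 7.72 and 18.0 FPKM in MYCN 1 to 4. All MYC libraries lay below all MYCN libraries (4.35 ± 1.19 against 13.7 ± 4.52 FPKM, log2 fold change -1.44 ± 0.26, adjusted p = 0.00257). The second, bmpr1ab, ranged from 2.28 to 5.49 FPKM in MYC with a median of 3.23, against 8.24, 8.82, 4.03 and 8.89 FPKM in MYCN. Here MYC 5 overlapped the lowest MYCN library, MYCN 3 (log2 fold change -0.94 ± 0.24, adjusted p = 0.0203). That call ended without MYCN 1, MYCN 2 or MYCN 4 (adjusted p = 0.0665, 0.0732 and 0.0801) and against either MYC set alone (0.0686 and 0.0942).

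The activin type I receptor gene acvr1b fell as well. It ranged from 8.90 to 23.6 FPKM in MYC with a median of 11.2, against 26.0, 24.7, 30.3 and 36.9 FPKM in MYCN 1 to 4. The groups did not overlap, although MYC 7 and MYC 8, at 18.3 and 23.6 FPKM, came closest to MYCN. Means were 13.3 ± 5.04 FPKM in MYC and 29.4 ± 5.51 FPKM in MYCN (log2 fold change -1.14 ± 0.25, adjusted p = 0.00823, and 0.0839 against MYC 5 to 8 alone).

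Of the BMP type II receptor genes, the less abundant bmpr2a fell. It ranged from 0.485 to 1.27 FPKM in MYC with a median of 0.845, against 2.44, 1.73, 1.65 and 2.50 FPKM in MYCN (log2 fold change -0.75 ± 0.19, adjusted p = 0.0170). The groups were apart, but the call ended with the replicate block (adjusted p = 0.0659), against MYC 1 to 4 alone (0.123) and without MYCN 1 or MYCN 4 (0.0602 and 0.0684). Too few MYC libraries reached 1 FPKM for bmpr2a to pass the filter without MYCN, so it entered the tested set through its high group. Its paralogue bmpr2b was the most abundant receptor gene. It ranged from 15.4 to 30.3 FPKM in MYC with a median of 18.3, against 21.4, 21.5, 38.6 and 59.1 FPKM in MYCN, and the groups overlapped (log2 fold change -0.63 ± 0.28, adjusted p = 0.158).

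The gene acvr1l, which encodes the zebrafish BMP type I receptor Alk8, had the second highest receptor mean in MYC and the third in MYCN, after bmpr2b and acvr1b. It ranged from 9.14 to 26.9 FPKM in MYC with a median of 22.2, against 36.5, 33.4, 18.3 and 26.8 FPKM in MYCN. The groups overlapped (log2 fold change -0.57 ± 0.32, adjusted p = 0.264), and the gene passed with the replicate block (-0.67 ± 0.15, adjusted p = 0.0229). In both groups its mean (19.9 ± 7.20 FPKM in MYC and 28.8 ± 8.07 FPKM in MYCN) was within the spread of bmpr2b (21.0 ± 5.62 FPKM in MYC and 35.2 ± 17.9 FPKM in MYCN).

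The type I receptor gene bmpr1ba, a BMPR1B paralogue, varied among the MYC libraries. It stood at 11.5, 11.9, 7.71 and 4.08 FPKM in MYC 1 to 4 and at 3.48, 1.40, 1.31 and 1.23 FPKM in MYC 5 to 8, against 5.49, 7.61, 4.46 and 13.1 FPKM in MYCN 1 to 4. MYC 5 to 8 lay below all MYC 1 to 4 and all MYCN libraries. Against MYCN the log2 fold change was -1.57 for MYC 5 to 8 (adjusted p = 0.0261) and 0.18 for MYC 1 to 4 (0.826), with the MYCN libraries shared. The direct difference, MYC 5 to 8 minus MYC 1 to 4, was -1.75 ± 0.36 (adjusted p = 0.0754). Between those sets 0.458% of all tested genes passed and 0 of the 32 by limma, with 1 higher (3.12%, against 3.09% of all tested genes) and 3 lower (9.38%, against 5.67%) at an unadjusted p under 0.05. Over all 8 MYC libraries bmpr1ba did not pass (adjusted p = 0.411).

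The remaining receptor genes had no call. The activin type II receptor genes acvr2aa and acvr2b ranged from 1.50 to 11.7 and from 2.73 to 7.81 FPKM in MYC, against 2.58 to 3.94 and 3.15 to 7.71 FPKM in MYCN (adjusted p = 0.693 and 0.375). The TGF-beta type I receptor gene tgfbr1b ranged from 3.99 to 21.3 FPKM in MYC and from 6.52 to 22.9 FPKM in MYCN (adjusted p = 0.276), and tgfbr1a from 0.388 to 2.86 FPKM in MYC and from 0.676 to 1.16 FPKM in MYCN (0.829). The genes tgfbr2, acvrl1 and bmpr1bb did not reach the filter. The TGF-beta type II receptor gene tgfbr2 was at most 0.872 FPKM in MYC and 0.510 FPKM in MYCN, and the highest values of each group were in MYC 1 and MYCN 1. The endothelial receptor gene acvrl1 ranged from 0.135 to 1.07 FPKM in MYC and from 0.0758 to 0.349 FPKM in MYCN.

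Of the 6 receptor Smad genes, 2 fell and the other 4 did not pass. The 2 that fell, smad1 and smad5, are both transducers of BMP receptors. The gene smad1 stood at 1.99, 1.50, 1.27 and 0.383 FPKM in MYC 1 to 4 and at 0.237, 0, 0.0959 and 0.151 FPKM in MYC 5 to 8, against 4.93, 4.93, 2.51 and 2.86 FPKM in MYCN 1 to 4. All MYC libraries lay below all MYCN libraries, and MYC 5 to 8 lay below MYC 1 to 4. Too few MYC libraries reached 1 FPKM for smad1 to pass the filter without MYCN, so it entered the tested set through its high group. The log2 fold change was -1.58 ± 0.32 (adjusted p = 0.00586). It was -1.09 for MYC 1 to 4 (adjusted p = 0.0524) and -2.06 for MYC 5 to 8 (0.00105), and between the MYC sets -0.98 ± 0.26 (0.165).

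For smad5 the separation was weaker. It ranged from 3.35 to 12.01 FPKM in MYC with a median of 5.59, against 12.04, 18.03, 8.22 and 11.1 FPKM in MYCN 1 to 4. Only MYC 1 lay inside the MYCN range (log2 fold change -0.88 ± 0.28, adjusted p = 0.0486). The call held only without MYC 1 or MYCN 3, and without any other library, MYCN 1, MYCN 2, MYCN 4 and MYC 2 to 8, the adjusted p was 0.0527 to 0.172. It was 0.0826 with the replicate block, 0.188 against MYC 1 to 4 alone and 0.0732 against MYC 5 to 8 alone. The third BMP Smad gene, smad9, ranged from 1.48 to 3.54 FPKM in MYC and from 1.02 to 2.54 FPKM in MYCN (log2 fold change 0.32 ± 0.23, adjusted p = 0.394).

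The Smad genes of the activin and TGF-beta branch had no call. The gene smad2 was the most abundant receptor Smad, at 3.81 to 23.2 FPKM in MYC with a median of 14.6, against 18.0, 29.8, 8.35 and 18.4 FPKM in MYCN (log2 fold change -0.50 ± 0.44, adjusted p = 0.502). The paralogues smad3a and smad3b had opposite signs. The gene smad3a ranged from 0.276 to 2.12 FPKM in MYC, against 0.418, 0.183, 0.0582 and 0.0418 FPKM in MYCN, with 7 of 8 MYC libraries above all MYCN libraries (0.70 ± 0.25, adjusted p = 0.0757). It passed with a pseudocount of 0.1 (log2 fold change 1.95, adjusted p = 0.0351). Since smad3a reached 1 FPKM in MYC libraries only, it entered the tested set through its high group. The gene smad3b ranged from 1.72 to 5.06 FPKM in MYC and from 2.96 to 4.40 FPKM in MYCN (-0.32 ± 0.22, adjusted p = 0.381).

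Both inhibitory Smad genes, whose products shut off activated receptors and which BMP and TGF-beta signals themselves induce, overlapped between the groups. The gene smad6a ranged from 0.817 to 6.92 FPKM in MYC with a median of 1.87, against 7.04, 6.98, 1.60 and 5.05 FPKM in MYCN (log2 fold change -0.70 ± 0.41, adjusted p = 0.291). The gene smad7 ranged from 2.58 to 6.99 FPKM in MYC with a median of 4.69, against 1.22, 10.9, 6.92 and 9.09 FPKM in MYCN (-0.30 ± 0.39, adjusted p = 0.666). MYCN 1 was low for smad7 and at the top of its group for smad6a.

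The Id genes had higher mean values in MYC for id1 and id3, without a call in the fit over 12 libraries. The gene id1 stood at 13.0, 5.41, 4.70 and 8.94 FPKM in MYC 1 to 4 and at 5.38, 4.69, 6.35 and 3.67 FPKM in MYC 5 to 8, against 2.19, 1.42, 6.38 and 3.04 FPKM in MYCN 1 to 4. All MYC libraries exceeded 3 of the 4 MYCN libraries, and MYCN 3 lay among the MYC values. Its log2 fold change of 0.86 ± 0.33 did not pass (adjusted p = 0.0991). Without MYCN 3 it was 1.17 (adjusted p = 0.0301).

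The gene id3 stood at 16.3, 5.74, 4.26 and 5.85 FPKM in MYC 1 to 4 and at 2.73, 1.88, 0.701 and 1.78 FPKM in MYC 5 to 8, against 0.994, 1.08, 0.867 and 1.14 FPKM in MYCN 1 to 4. The MYCN libraries were close together, 7 of 8 MYC libraries exceeded all of them, and MYC 7 lay below them. Over all libraries its log2 fold change was 1.20 ± 0.47 (adjusted p = 0.109). Under the replicate block it was 2.00 ± 0.30 (adjusted p = 0.00633), and without MYC 7 it was 1.41 (0.0417). Too few MYCN libraries reached 1 FPKM for id3 to pass the filter without MYC, so it entered the tested set through its high group. The unblocked fit of MYC 1 to 4 against MYCN uses the same libraries as the block, so its log2 fold change is necessarily the same 2.00 (adjusted p = 0.00811). For MYC 5 to 8 it was 0.40 (adjusted p = 0.363), and the difference between the MYC sets was -1.59 ± 0.40 (0.134). The macrophage sum was higher in each of MYC 1 to 4 than in each of MYC 5 to 8, as id3 was, and its part in the level was not tested.

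**Figure D3:**
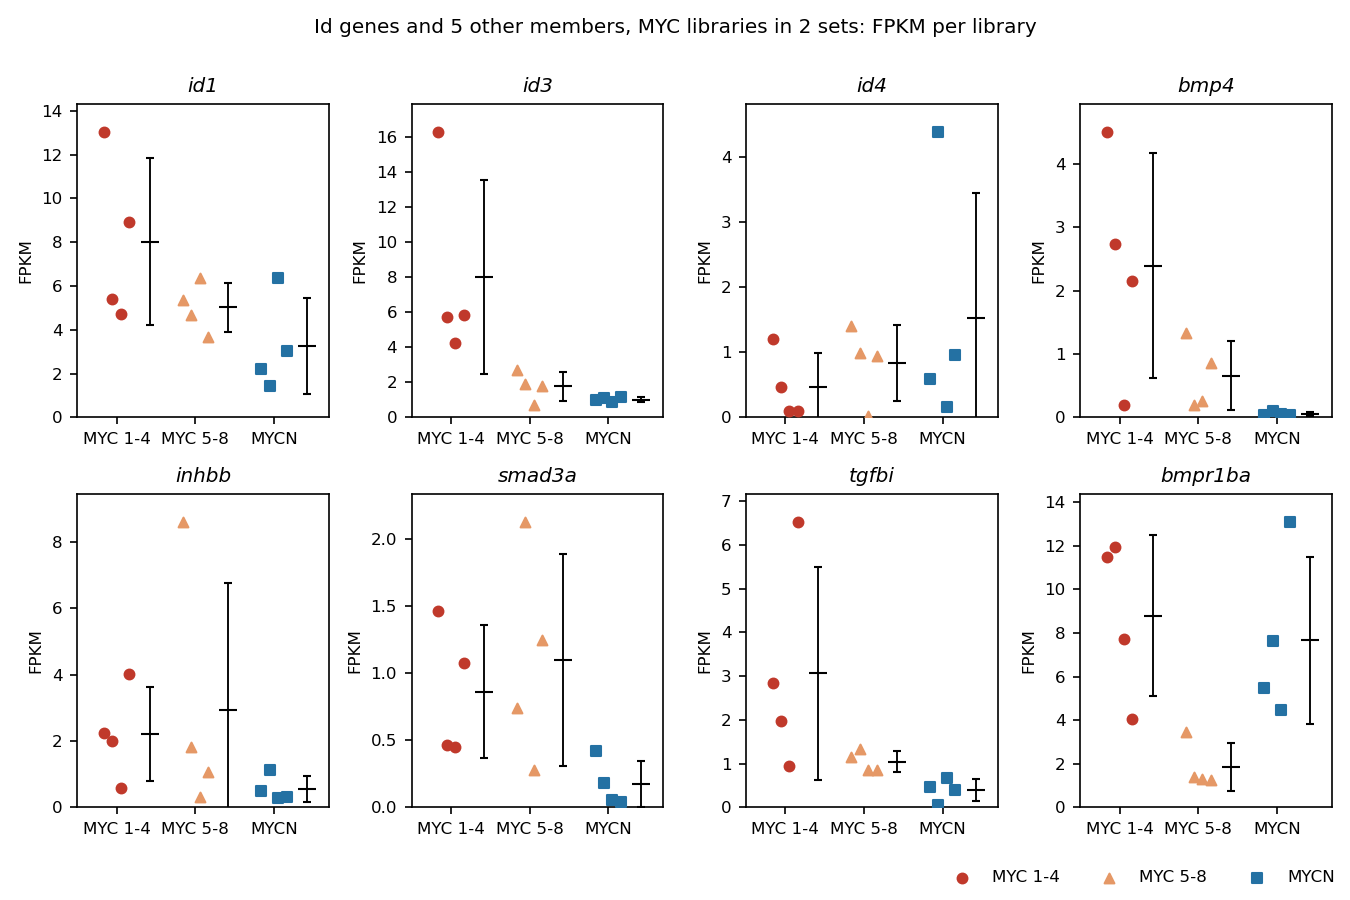
FPKM per library of the 3 Id genes and of bmp4, inhbb, smad3a, tgfbi and bmpr1ba, with MYC 1 to 4 (circles), MYC 5 to 8 (triangles) and MYCN (squares) from left to right; black bars are the mean and SD of each set of 4 (ending at the axis where the SD reaches below 0), and each panel has its own axis from 0. For id3 and bmpr1ba every MYC 1 to 4 value lies above every MYC 5 to 8 value, and the MYCN values are near the low set for id3 and near the high set for bmpr1ba.

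The gene id4 did not reach the filter. It ranged from 0.0268 to 1.40 FPKM in MYC with values under 0.1 FPKM in MYC 3, MYC 4 and MYC 7, against 0.595, 4.37, 0.152 and 0.958 FPKM in MYCN 1 to 4. The paralogues id2a and id2b are outside the symbol rule. The gene id2a averaged 7.17 ± 4.05 FPKM in MYC and 3.57 ± 1.69 FPKM in MYCN (log2 fold change 0.73 ± 0.43, adjusted p = 0.287). The gene id2b averaged 0.714 ± 0.639 FPKM in MYC and 1.77 ± 1.07 FPKM in MYCN (-0.68 ± 0.32, adjusted p = 0.175). In MYC 1 all of id1, id2a and id3 were at their highest of the 12 libraries.

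Among the 5 genes matched by name and placed in no other role, none of the 4 tested passed. The gene bmp2k, a cytoplasmic kinase of endocytosis, ranged from 9.09 to 20.01 FPKM in MYC with a median of 10.97, against 17.1, 19.7, 17.5 and 26.0 FPKM in MYCN (log2 fold change -0.65 ± 0.23, adjusted p = 0.0786, and -0.83 with adjusted p = 0.0296 with the replicate block). The gene tgfbrap1, a vesicle-tethering protein, ranged from 3.08 to 4.87 FPKM in MYC with a median of 4.33, against 5.63, 4.56, 4.48 and 4.37 FPKM in MYCN 1 to 4 (adjusted p = 0.587). The gene bmp1a, a metalloprotease that processes collagen, ranged from 0.297 to 3.43 FPKM in MYC and from 1.69 to 5.17 FPKM in MYCN (-1.02 ± 0.33, adjusted p = 0.0578, and 0.00619 with the replicate block). Too few MYC libraries reached 1 FPKM for bmp1a to pass the filter without MYCN, so it entered the tested set through its high group.

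The gene tgfbi encodes a matrix protein named for its induction by TGF-beta. It stood at 2.83, 1.97, 0.939 and 6.51 FPKM in MYC 1 to 4 and at 1.15, 1.33, 0.857 and 0.856 FPKM in MYC 5 to 8, against 0.467, 0.0634, 0.679 and 0.402 FPKM in MYCN 1 to 4. All MYC libraries exceeded all MYCN libraries, and with bmp4 it was 1 of 2 tested members to do so (6.25%, against 3.73% of all tested genes). Both reached 1 FPKM in MYC libraries only and so entered the tested set through their high group, which makes this count a description. For tgfbi the log2 fold change of 0.97 ± 0.34 did not pass (adjusted p = 0.0794), and that of 1.37 ± 0.34 with the replicate block did (adjusted p = 0.0290). In mammals macrophages make this protein too. The macrophage sum without cd74a was likewise higher in all MYC libraries, and its part here was not tested.

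**Figure D4:**
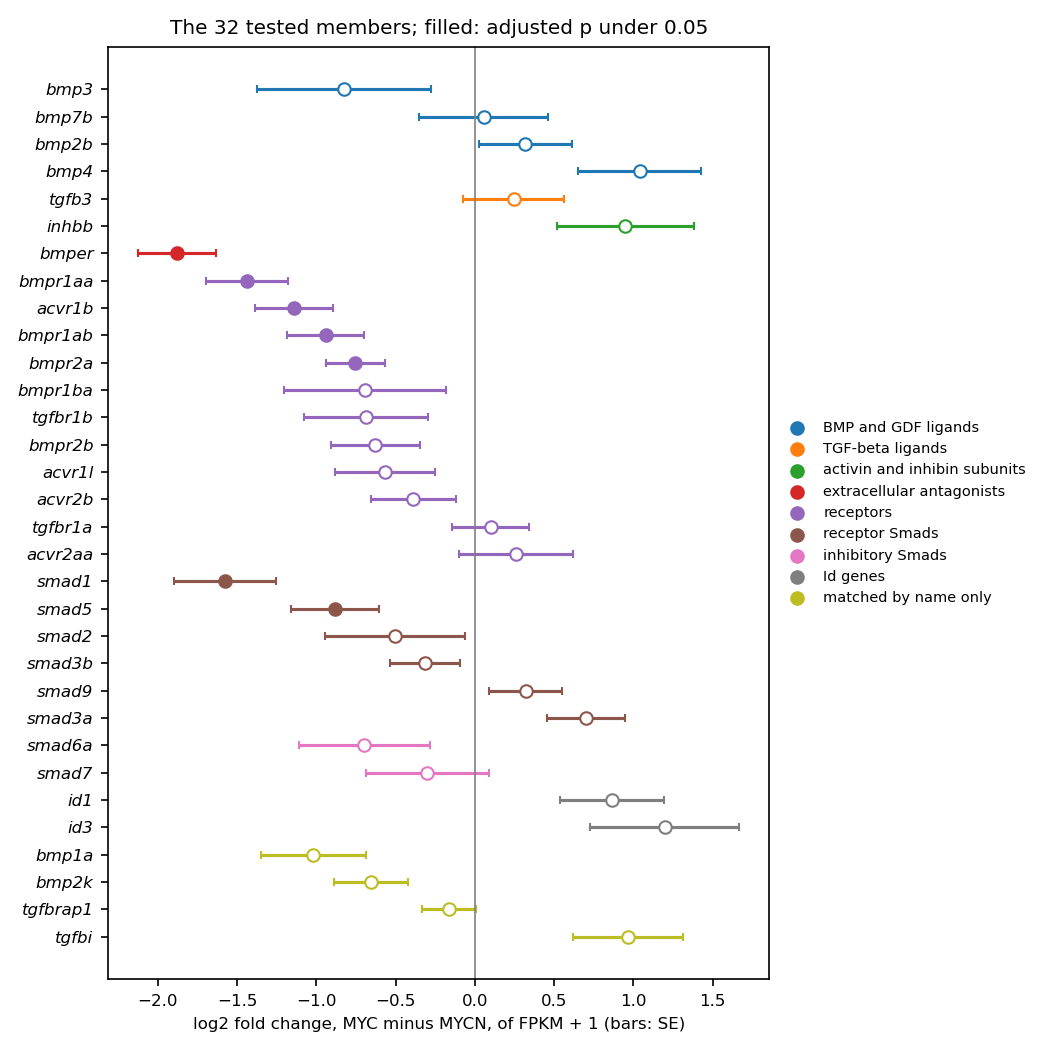
Log2 fold change, MYC minus MYCN, on the scale of FPKM + 1, with its SE, for the 32 tested genes by role; filled points have an adjusted p under 0.05. The 7 filled points lie between -1.88 and -0.75, and bmp4, inhbb, smad3a, id1, id3 and tgfbi lie at 0.70 or above with open points.

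With the replicate block, 8 of the 32 fell and 3 rose (bmp4, id3 and tgfbi), where 13.3% of all tested genes fell and 10.2% rose. Those 3 entered the tested set through MYC, their high group. Among the 8, smad1 and bmp1a entered it through MYCN, their high group, so these counts are descriptions. Against MYC 1 to 4 alone 4 fell and the same 3 rose, beside 4.69% and 4.8% of all tested genes. Against MYC 5 to 8 alone 5 fell and the other 27 did not pass, beside 4.73% of all tested genes that fell and 4.12% that rose. These comparisons share the MYCN libraries. The replicate block and the fit against MYC 1 to 4 also share the MYC libraries and have the same fold changes, so they are not separate results. The genes bmper and bmpr1aa fell in each of these comparisons. Without overlap between the groups, 5 of the 32 were lower in MYC (15.6%, against 5.6% of all tested genes). Among them, smad1 and bmpr2a entered the tested set through MYCN, their high group, which makes this count a description.

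Outside the symbol rule, 122 further pathway genes were listed and found in the table, of which 51 were tested, 9 fell, 2 rose and 40 did not pass. The share that fell was 17.6% and the share that rose 3.92%, beside the 7.63% and 5.77% of all tested genes given above, and the median log2 fold change was -0.34. These lists were chosen with earlier results of these data known, so the shares are descriptions. They also include hand2, given above as a noradrenergic marker that fell.

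Both tested co-receptor genes fell. The gene bambib encodes a receptor-like protein with no kinase domain that dampens BMP signals and is induced by them. It ranged from 4.96 to 7.94 FPKM in MYC, against 20.1, 27.4, 18.6 and 47.5 FPKM in MYCN 1 to 4. The groups were far apart (log2 fold change -1.93 ± 0.24, adjusted p = 0.000217). The gene neo1, encoding neogenin, a receptor for repulsive guidance molecules, ranged from 1.50 to 4.43 FPKM in MYC, against 7.01, 7.54, 7.40 and 9.17 FPKM in MYCN (-1.31 ± 0.25, adjusted p = 0.00352).

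Of the 3 tested extracellular antagonists outside the rule, crim1, which tethers BMPs at the cell surface, fell (2.74 ± 1.90 FPKM in MYC and 7.55 ± 2.88 FPKM in MYCN, log2 fold change -1.28 ± 0.36, adjusted p = 0.0293). Its call ended without MYCN 2 (0.0763) or MYCN 4 (0.116). Going the other way, fstl1a averaged 2.08 ± 2.18 FPKM in MYC and 0.0307 ± 0.0207 FPKM in MYCN, without overlap. It did not pass (log2 fold change 1.30 ± 0.43, adjusted p = 0.0598), but did with the replicate block (1.02 ± 0.30, adjusted p = 0.0456). It reached 1 FPKM in MYC libraries only and so entered the tested set through its high group. The third, sostdc1a, did not pass (adjusted p = 0.883). Of the 25 intracellular regulators, skia and lemd3 fell and skilb rose. The Ski gene skia and the SnoN gene skilb both encode co-repressors of Smads. The first averaged 2.10 ± 0.877 FPKM in MYC and 5.64 ± 2.23 FPKM in MYCN (-1.09 ± 0.28, adjusted p = 0.0195). The second, which TGF-beta also induces in mammals, averaged 6.79 ± 4.10 FPKM in MYC and 1.98 ± 0.614 FPKM in MYCN (1.26 ± 0.33, adjusted p = 0.0234). Every MYC library had more skilb than every MYCN library. The gene lemd3, a protein of the inner nuclear membrane that binds Smads, averaged 9.57 ± 2.93 FPKM in MYC and 17.3 ± 3.53 FPKM in MYCN (-0.82 ± 0.24, adjusted p = 0.0332). The skia call ended without MYCN 2 or MYCN 4 (0.0650 and 0.0856), that of skilb without MYCN 1, MYCN 2 or MYCN 3 (0.0558 to 0.0745), and that of lemd3 without any of MYCN 2 to 4 (0.0683 to 0.0973) or without MYC 2, MYC 4 or MYC 6 (0.0534 to 0.0568).

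Among 4 tested genes listed as BMP targets or their cofactors, 2 fell. One is listed as si:ch211-216l23.1, now znf423, a zinc-finger partner of Smads that also works with retinoic acid receptors. It ranged from 4.45 to 15.5 FPKM in MYC, against 27.1, 26.5, 26.2 and 41.5 FPKM in MYCN (log2 fold change -1.61 ± 0.29, adjusted p = 0.00284). The other, gata2a, a zinc-finger factor of sympathetic neurons, averaged 192 ± 75.2 FPKM in MYC and 368 ± 69.5 FPKM in MYCN (-1.01 ± 0.29, adjusted p = 0.0353). Its call ended with the replicate block (0.0520) and without any MYCN library, MYC 2, MYC 4, MYC 6 or MYC 8 (0.0555 to 0.117). Of 9 TGF-beta target genes, junbb rose. It ranged from 456 to 4800 FPKM in MYC, against 12.3, 71.4, 20.3 and 2460 FPKM in MYCN 1 to 4 (3.82 ± 1.09, adjusted p = 0.0330). MYCN 4 lay in the upper part of the MYC range, and the call ended without MYCN 1, MYCN 2, MYCN 3, MYC 2 or MYC 4 (0.0541 to 0.121).

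Of 5 tested bHLH genes, whose products pair with E proteins or are the E proteins that Id proteins bind, ascl1a and hand2 fell. The log2 fold changes were -4.68 ± 0.59 for ascl1a (adjusted p = 0.000202) and -1.04 ± 0.26 for hand2 (0.0184), and the hand2 call ended without MYCN 1, MYCN 2 or MYCN 4 (0.0570 to 0.0739). Too few MYC libraries reached 1 FPKM for ascl1a to pass the filter without MYCN, so it entered the tested set through its high group. The E protein genes tcf3a, tcf3b and tcf12 had no call, at 9.13 ± 3.14, 10.4 ± 3.86 and 17.1 ± 7.79 FPKM in MYC, against 11.6 ± 2.60, 17.3 ± 5.85 and 22.8 ± 5.35 FPKM in MYCN (adjusted p = 0.406, 0.175 and 0.351). In MYC 1, which had the highest id1 and id3, the proneural gene ascl1a was at 0.272 FPKM, and in MYC 7, with the lowest id3, it was at 0.126 FPKM. Across the 8 MYC libraries, ascl1a was under 1 FPKM in MYC 1 and MYC 5 to 8, and at 2.86 to 7.55 FPKM in MYC 2 to 4. Any relation of ascl1a to the Id genes was not tested.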

How the data were processed

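Ribosomal RNA was removed from total RNA of sorted EGFP-positive cells before paired-end sequencing, per the labels' protocols. The authors deposited 1 table of FPKM values (fragments scaled by transcript length and library depth), and the submitters' processing notes name cutadapt, TopHat2 2.0.11 and Cufflinks 2.2.1. The genome build, the annotation and the handling of reads shared by paralogues are not given in the sources used here. FPKM carries no fragment count, so depth is unknown and no counting interval is given.

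Groups and replicate numbers were read from the sample titles. The 9606 genes that reached 1 FPKM in 4 or more of the 12 libraries were fitted as log2(FPKM + 1) with limma 3.58.1 in R 4.3.3 (trended eBayes, two-sided), with Benjamini-Hochberg adjustment over all 9606 and a threshold of 0.05. The fit was tested on simulated data. Fold changes on this scale understate those of genes near 0. Members and lists were chosen with earlier results of these data known. Called members, the Id genes and the 2 most abundant members of each role are given per library or by range. An exception is nog3, given only within a shared maximum. Others are given by range, and names outside this rule were chosen after their values were seen.

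Deviations from the group mean correlated between MYCN and MYC libraries of the same number (1 to 4) across genes at 0.249, 0.379, 0.534 and 0.148. All 4 are above 0.1, and a blocked fit (replicate block, these 8 libraries) is given where it changes the call of a member. Among MYC 1 to 4, the best match had the same number for MYCN 1, MYCN 2 and MYCN 3, but was MYC 3 for MYCN 4. A value above 0.1 thus does not by itself mark a pair. The meaning of the numbers is not labelled, nor is it stated that libraries came from separate fish, so p-values measure the spread between these libraries. The MYC libraries were also set against MYCN as MYC 1 to 4, whose numbers MYCN shares, and MYC 5 to 8; no label calls these sets batches. In all of MYC 5 to 8, and in no other library, 6 genes were listed at 0, and as many were for MYCN 3, MYC 5, MYC 6 and MYC 8. All 60 member symbols matched a RefSeq entry (GRCz12tu), 3 of them by an older name (acvr1b, acvr2b and tgfbr2), and no coordinates are given because the build of the table is unknown.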

Additional observations from a re-analysis of the deposited data

Results flagged for a closer look

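Of 64 groups of libraries examined (32 genes in MYC and MYCN), 3 held 1 library that stood far from the others of its group on the log2 scale; chance alone flags about 1 in 20 such groups. MYCN 3 had 4.03 FPKM of bmpr1ab, where the next lowest MYCN library had 8.24 FPKM. MYC 3 had 21.3 FPKM of tgfbr1b, where the next highest MYC library had 7.67 FPKM. MYCN 1 had 5.63 FPKM of tgfbrap1, where the next highest MYCN library had 4.56 FPKM.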

How the results depend on the processing

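Over 32 genes and 23 alternatives, 653 of 720 log2 fold changes kept their direction and their side of the threshold, 26 lost and 25 gained a call, and 16 changed sign, all 16 for acvr2aa, bmp7b, bmpr1ba and tgfbr1a, which had no call. The cause of these changes was not tested. The count of 7 members that fell was 4 with a filter of 5 FPKM and 4 against MYC 1 to 4, and the count of 0 that rose was 3 with a pseudocount of 0.1, 1 after median-ratio scaling, 3 with the replicate block, 3 against MYC 1 to 4 and 1 without MYC 1 and MYCN 3 together (an alternative chosen after seeing the data, as was the comparison between the MYC sets). Leaving out 1 library gave 4 to 7 that fell and 0 to 2 that rose. Over all genes, 554 rose and 733 fell; 367 rose and 905 fell with every library brought to a common FPKM sum, 984 rose and 1277 fell with the replicate block, and 451 fell against MYC 1 to 4 and 454 against MYC 5 to 8. A common sum moved the median log2 fold change of all genes by -0.17, and 28.9% of its calls were higher in MYC, against 43% without it; 8 members then fell and 0 rose in limma. Leaving out 1 library gave 289 to 628 that rose and 418 to 723 that fell. Sign changes were, for acvr2aa, -0.25 with the replicate block and against MYC 1 to 4; for bmpr1ba, 0.18 in the same fits; for tgfbr1a, -0.0028 with a common FPKM sum, -0.014 against MYC 5 to 8, -0.030 to 0.18 when leaving out 1 library (below 0 only without MYC 1) and -0.037 without MYC 1 and MYCN 3. For bmp7b they were -0.062 with a common FPKM sum, -0.27 with the replicate block and against MYC 1 to 4, -0.14 to 0.33 when leaving out 1 library (below 0 without MYCN 1, MYCN 3, MYC 6 or MYC 8), and -0.066 without MYC 1 and MYCN 3. With FPKM alone, differences below about 1 FPKM rest on the spread between libraries, since the fragments behind them are unknown.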
